A study of Homo sapiens with 8 samples.

Results

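Integrins and the adaptor proteins of focal adhesions were followed at the mRNA level in PC3 cells after knockdown of IER5L. The set held 49 genes chosen by name from textbook knowledge of cell adhesion, of 58051 genes in the count table: 12 integrin alpha subunits, 8 integrin beta subunits and 29 cytoplasmic partners. The partners were grouped as 4 integrin activators, 10 linkers between integrin and actin and the 4 genes of the ILK-PINCH-parvin complex. The rest were the 3 paxillin family members, 3 kinases and 5 signalling adaptors. The group of linkers includes TNS4, which lacks the actin-binding part of its relatives. After removal of genes with too few counts 44 of the 49 remained among the 16959 genes tested. PC3 is an established human prostate cancer cell line grown from a bone metastasis. Cells were transduced with lentivirus and selected with puromycin, and carried either a scrambled hairpin with no target (shScramble, 4 biological replicates) or the sh2 hairpin against IER5L (shIER5L, 4 biological replicates). Knockdown is therefore represented by 1 hairpin. The question was whether the knockdown, which the study followed in assays of migration and invasion and in which paxillin was examined as a phosphoprotein, changed the transcripts of the adhesion machinery. The phosphoproteome was not analysed here.

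Integrins are pairs of 1 alpha and 1 beta subunit that span the plasma membrane and bind collagens, laminins, fibronectin and other matrix proteins outside the cell. Inside, talins and kindlins bind the beta tail and switch the receptor on, vinculin, alpha-actinins and tensins tie it to actin, and focal adhesion kinase, Src, paxillin, p130Cas and the Crk proteins pass the signal on. These proteins are regulated largely by assembly and phosphorylation, so their mRNA levels describe supply of the parts and not activity of the adhesions.

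Total counts per sample ran from 21512128 to 24662190, read pairs were counted as single reads without strand, and replicates of a condition correlated at 0.988 to 0.992 (Pearson, log2 CPM across genes, where CPM are counts scaled by TMM to a common library size). Replicates were not evenly alike by the chi-square per degree of freedom between their counts. In shScramble it was 2.82 for replicates 2 and 3, 3.47 for 1 and 4, and 5.27 to 6.43 for the other pairs. In shIER5L it was 3.35 for replicates 1 and 2, 4.22 for 3 and 4, and 7.27 to 11.8 for the other pairs. IER5L itself was at 3.91, 6.51, 5.62 and 3.23 CPM in shScramble and 2.73, 3.02, 2.04 and 1.32 CPM in shIER5L, with a log2 fold change of -1.08 (SE 0.248, adjusted p = 0.0212 by edgeR's quasi-likelihood test). The shScramble and shIER5L values of IER5L did not overlap. Of the epithelial markers, KRT18 and KRT19 were abundant (381.5 to 559.9 CPM), KRT8 and EPCAM lay between 25.7 and 63.1 CPM and CDH1 near 1 CPM, and none of the 5 differed at an adjusted p under 0.05. The 4 leukocyte markers stayed at or below 0.161 CPM, and the fibroblast markers COL1A1, DCN, PDGFRB and LUM at or below 0.882 CPM. Of the endothelial markers VWF and CDH5 were at or below 0.0914 CPM, and PECAM1 was at 7.24 to 10.4 CPM (adjusted p = 0.5).

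PC3 cells expressed a narrow set of alpha subunits. Levels between genes were compared only per length, as RPKM (CPM per kilobase of counted exon), and all levels in this paragraph are means of the 4 shScramble samples. ITGA6, which forms laminin receptors with beta 1 or beta 4, was the highest alpha subunit at 55.4 ± 2.45 RPKM (SD, n = 4). ITGA2, a collagen-binding subunit, followed at 41 RPKM. ITGAV, the partner of several beta subunits in receptors for RGD ligands, was at 29.7 RPKM, and ITGA3, another laminin-binding subunit, at 15.6 RPKM. ITGA5, the subunit of the classical fibronectin receptor, was lower at 5.01 RPKM. ITGAE (3.52 RPKM), ITGA1 (1.42), ITGA10 (0.844), ITGA7 (0.233) and ITGA11 (0.12) came next, and each of these 10 genes was separated from the next in the order by non-overlapping shScramble samples. ITGA4 and ITGA9, at 0.0328 and 0.0255 RPKM, overlapped each other and were not distinguishable.

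The beta subunits were dominated by 1 gene. ITGB1, the shared partner of most alpha subunits in these cells, was at 195.5 RPKM and made up 85.8% ± 0.96 (SD, n = 4) of the summed RPKM of the 8 beta subunits in shScramble. ITGB5, a partner of ITGAV, was at 20.1 RPKM, ITGB4, the hemidesmosome subunit that pairs with ITGA6, at 7.22 RPKM and ITGB8, another partner of ITGAV known for binding latent TGF-beta, at 4.61 RPKM. These 4 did not overlap among shScramble samples. ITGB3, ITGB2, ITGB6 and ITGB7 lay between 0.0389 and 0.153 RPKM, and neighbours in that order overlapped. The levels of ITGB3 and ITGB7 are uncertain, since 51.6% and 42.1% of their exon bases also lay in exons of other genes.

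**Figure D1:**
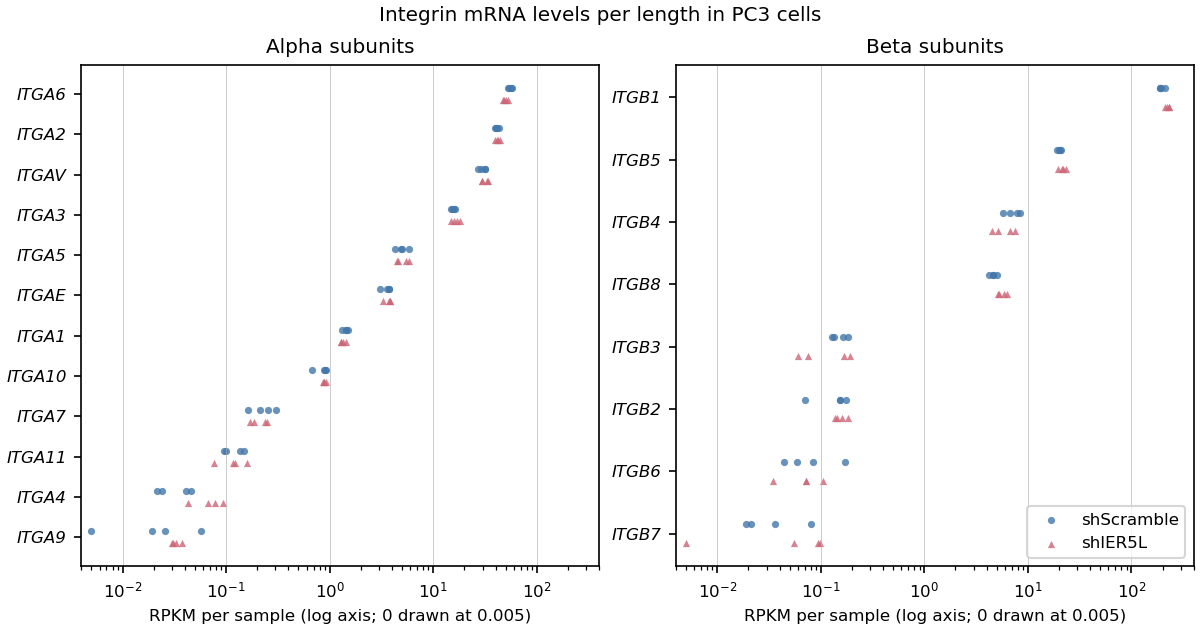
Level per length of each integrin subunit in the 4 shScramble (circles) and 4 shIER5L samples (triangles), in RPKM on a log axis, alpha subunits on the left and beta subunits on the right, in order of the shScramble mean. ITGB1 stands far to the right of every other subunit (195.5 RPKM in shScramble), 5 alpha subunits exceed 4 RPKM, and values of 0 are drawn at 0.005.

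Among the partners, VCL (vinculin) was the most abundant per length at 96.2 ± 2.85 RPKM, followed by ACTN4 at 44.1 RPKM, the adaptor CRKL at 36.8 RPKM and the kindlin FERMT2 at 24.6 RPKM. ACTN4 and CRKL overlapped between samples, as did LPXN (leupaxin) at 17.5 RPKM and PTK2 (focal adhesion kinase) at 17.1 RPKM. PXN (paxillin) was at 2.38 RPKM, below the median of 3.17 RPKM over all genes tested and below its relative LPXN, and it overlapped with its neighbours TNS4 and KANK2. SRC was at 3.54 RPKM and TLN1, the main talin, at 8.71 RPKM. At the low end TGFB1I1 (Hic-5) was at 0.247 RPKM and PTK2B at 0.122 RPKM.

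Most of these transcripts stayed within a narrow band after knockdown, as did most genes tested. Of the 44 genes tested 22 were higher and 22 lower in shIER5L, with a median log2 fold change of -0.001 beside 0.002 over all genes tested. Differences of less than 0.2 on the log2 scale were found for 37 members, and for 12072 of all 16959 genes tested. ITGB1 and ITGB8 rose and were the only 2 with an adjusted p under 0.05 (4.55%), against 3.93% of all genes tested, and 2.46% of all genes tested were called higher. No member reached the DEG thresholds (adjusted p under 0.05 with a log2 fold change of 0.5 or more in size), which 0.79% of all genes tested did. At an unadjusted p under 0.05 there were 6 members, beside 16.5% of all genes tested. DESeq2 gave 4 members at an adjusted p under 0.05, where it called 5.58% of all genes tested, and 0 DEGs among members. The CPM of the conditions did not overlap for 3 members, 2 higher and 1 lower, where 10.9% of all genes tested did not overlap (6.33% higher and 4.61% lower). In the edgeR fit on all samples the members' shares of calls and of separated conditions were near or below those of all genes. Other fits went both ways: DESeq2 called a larger share of the members than of all genes, and some fits with 1 sample left out called 0 members. The precision was fair: the median standard error was 0.0922, beside 0.109 over all genes tested. The 95% interval of the log2 fold change lay wholly within 0.5 of 0 for 33 members and within 1 for 41. Over all 16959 genes tested these numbers were 10562 and 14774.

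**Figure D2:**
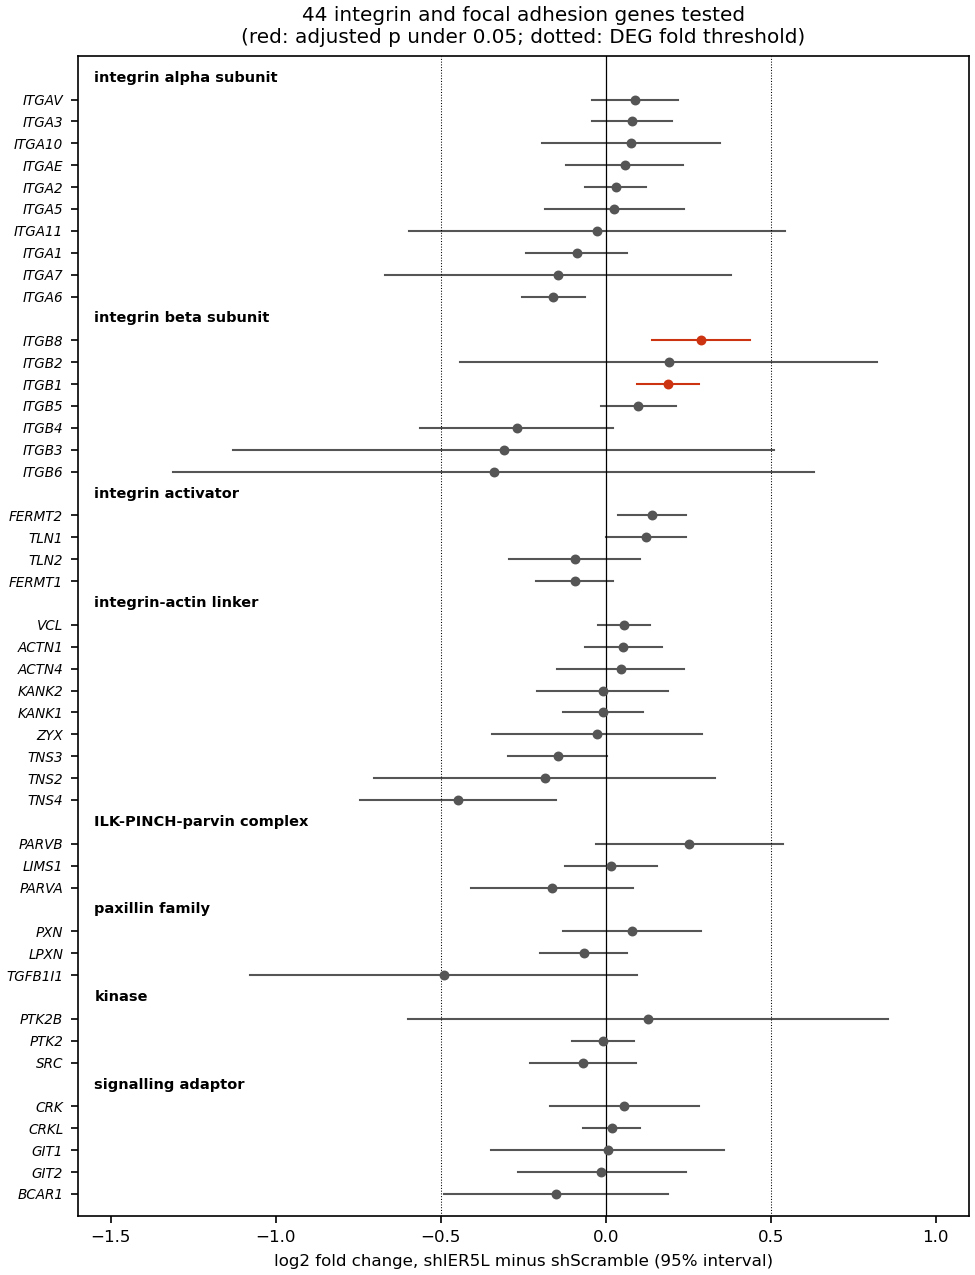
Log2 fold change (shIER5L minus shScramble, points) with its 95% interval (lines) for the 44 genes tested, grouped by role. ITGB1 and ITGB8 (red, adjusted p under 0.05) lie to the right of 0, and the widest intervals belong to the low genes ITGB6, ITGB3, PTK2B and ITGB2.

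The 2 calls were both beta subunits. ITGB1 (chr10:32900319-33005792, minus strand, hg38) was at 1255, 1142, 1144 and 1159 CPM in shScramble and 1321, 1264, 1372 and 1401 CPM in shIER5L. All 4 knockdown samples lay above all 4 controls, although the nearest pair, 1255 and 1264 CPM, was close. The log2 fold change was 0.19 (SE 0.0436, adjusted p = 0.0213), a rise of 14% with a 95% interval of 6.91% to 21.5%. ITGB8 (chr7:20330702-20415754, plus strand) was at 69.9, 63.2, 69.8 and 76.4 CPM in shScramble and 77.7, 80.4, 88.2 and 94.6 CPM in shIER5L. Again no knockdown sample was as low as a control. Its log2 fold change was 0.29 (SE 0.0696, adjusted p = 0.0279), a rise of 22.1% (10.2% to 35.2%). Both calls leaned on the number of samples: leaving out each sample in turn gave 8 fits, each call was made in 3 of them, and neither was made without shScramble replicate 2 (adjusted p = 0.0857 for ITGB1 and 0.113 for ITGB8), without shScramble replicate 3 (0.0859 and 0.0806), without shIER5L replicate 3 (0.079 and 0.102) or without shIER5L replicate 4 (0.051 and 0.0703). ITGB1 was also not called without shScramble replicate 4 (adjusted p = 0.0734), nor ITGB8 without shScramble replicate 1 (adjusted p = 0.0657).

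The other beta subunits gave no call. ITGB4 was at 39.2, 53.4, 57.1 and 45.6 CPM in shScramble and 45.9, 50.7, 34.9 and 30.5 CPM in shIER5L. The ranges overlapped and both conditions were spread widely, with a log2 fold change of -0.27 (SE 0.138, adjusted p = 0.355). ITGB5 had a log2 fold change of 0.10 (SE 0.0535, adjusted p = 0.39), and ITGB2, ITGB3 and ITGB6, all near or below 1 CPM, had standard errors of 0.297 to 0.457.

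**Figure D3:**
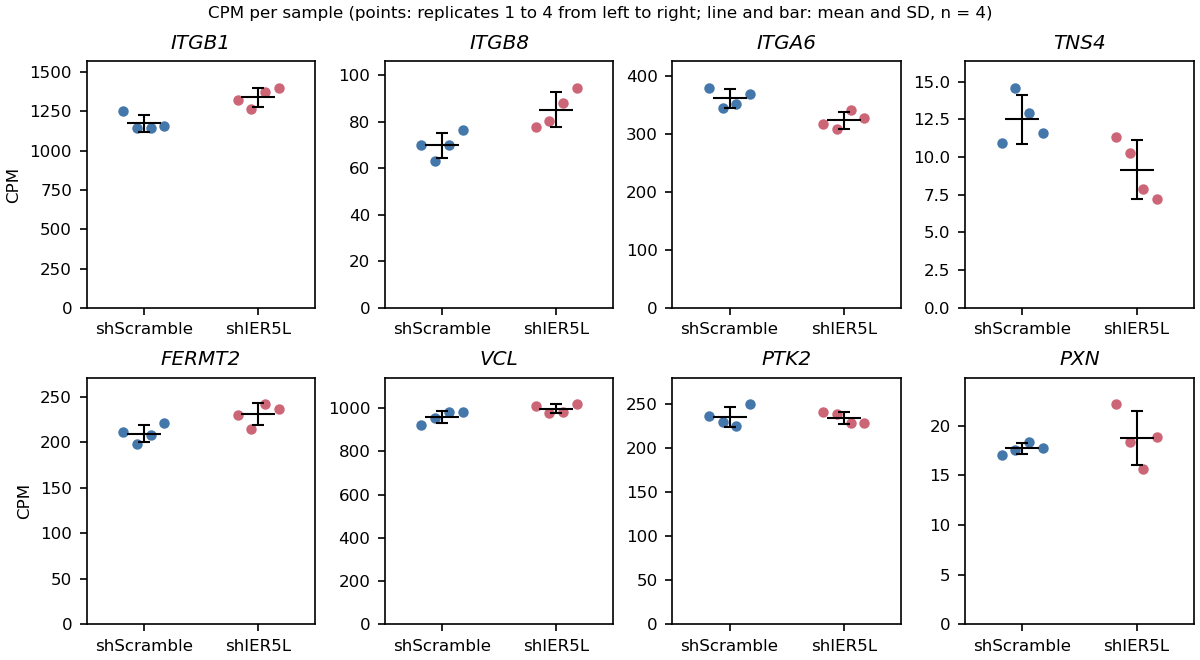
CPM in each sample for 8 members in shScramble (blue) and shIER5L (red), with mean and SD (n = 4) and axes that start at 0. The conditions separate for ITGB1, ITGB8 and ITGA6 and overlap for TNS4, FERMT2, VCL, PTK2 and PXN.

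No alpha subunit passed the threshold. ITGA6 (chr2:172427354-172506282) came nearest, at 380.6, 345.8, 352.2 and 369.9 CPM in shScramble and 318.2, 308.7, 342.6 and 327.4 CPM in shIER5L. Every knockdown sample lay below every control, with shIER5L replicate 3 the nearest to them. The log2 fold change was -0.16 (SE 0.0452, adjusted p = 0.063), with a 95% interval of -0.26 to -0.06. Its adjusted p passed under 0.05 in 7 of 11 other fits on all samples, among them the RLE (0.0492), upper quartile (0.0338) and total count (0.0167) scalings. With 1 sample left out it passed in 1 of 8 fits, without shIER5L replicate 3 (adjusted p = 0.0372), and the adjusted p reached 0.17 in the others.

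The other main alpha subunits overlapped between conditions. ITGA2 was at 314.8 to 338.8 CPM in shScramble and 313.8 to 349.5 CPM in shIER5L, with a log2 fold change of 0.03 (SE 0.0436, adjusted p = 0.804). Its 95% interval of -0.06 to 0.12 leaves room only for small changes in either direction. ITGAV was at 257.5, 222, 236 and 260.4 CPM and then 240.4, 242.1, 274.1 and 280.3 CPM (log2 fold change 0.09, SE 0.0613, adjusted p = 0.531). ITGA3 was at 147.3 to 160 CPM and 146.8 to 179.3 CPM (0.08, SE 0.0576, adjusted p = 0.554). ITGA5 was at 32.7, 36.9, 37.7 and 44.6 CPM and then 41.4, 44.4, 34.7 and 34.2 CPM. Its conditions overlapped almost fully, the log2 fold change was 0.03 (SE 0.0991, adjusted p = 0.939), and its sign turned without shScramble replicate 1, without shIER5L replicate 1 and without shIER5L replicate 2. ITGA1, ITGA7, ITGA10, ITGA11 and ITGAE had log2 fold changes of -0.15 to 0.08, all overlapping.

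The alpha subunits were also read as shares of their summed level. ITGA6, which did not pass the test above, made up 36.8%, 35.9%, 35.6% and 36.6% of the summed RPKM of the 12 alpha subunits in shScramble and 33%, 32.2%, 34% and 32.2% in shIER5L. The lowest control was above the highest knockdown sample, and the means were 36.2% ± 0.57 and 32.9% ± 0.861 (SD, n = 4). ITGA2 (26.8% and 27.7%), ITGAV (19.4% and 20.9%) and ITGA3 (10.2% and 10.9%) overlapped between conditions. Summed over the alpha subunits the level was 153 ± 4.67 RPKM in shScramble and 151 ± 4.38 RPKM in shIER5L, overlapping, while the sum over the beta subunits was 227.8 ± 8.15 and 256.4 ± 7.71 RPKM, not overlapping, of which ITGB1 was 85.8% and 86.9%. The ratio of ITGB1 to the alpha sum was 1.25 to 1.32 in shScramble and 1.43 to 1.5 in shIER5L. The ratio of ITGB8 to its partner ITGAV was 0.147, 0.154, 0.16 and 0.159 in shScramble and 0.175, 0.18, 0.174 and 0.183 in shIER5L. Both ratios were higher in every knockdown sample than in any control. The ratios of ITGB4 to ITGA6 (0.131 and 0.122) and of ITGB5 to ITGAV (0.68 and 0.688) overlapped. These sums and ratios are built from the same values as the tests above and were given no test of their own.

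**Figure D4:**
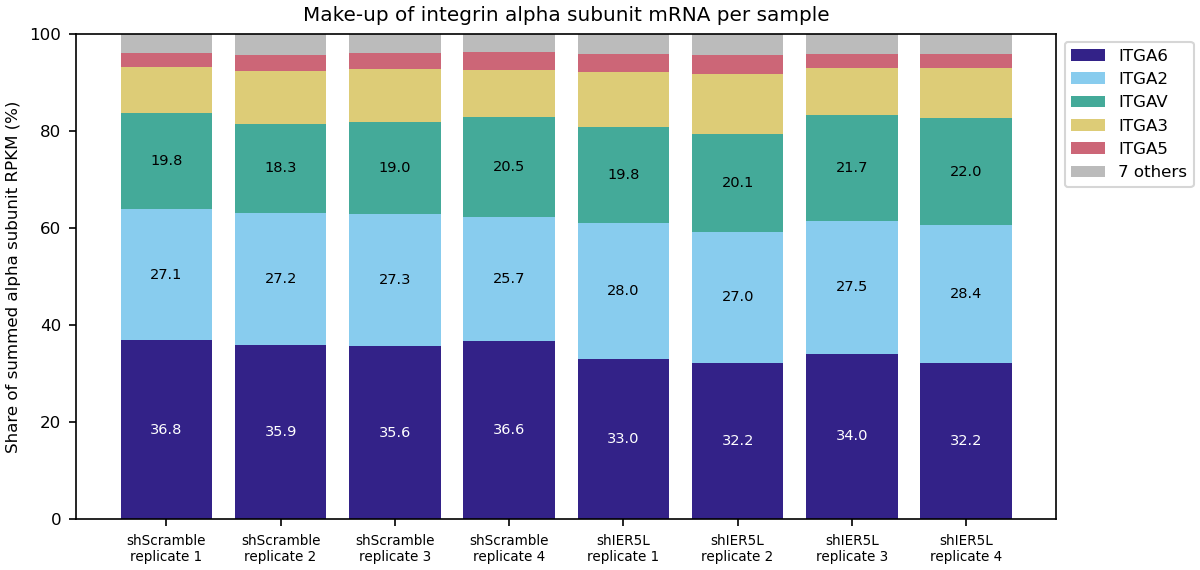
Share of each alpha subunit in the summed RPKM of the 12 alpha subunits (percent, stacked to 100) in each sample. ITGA6 takes 35.6% to 36.8% in the 4 shScramble samples and 32.2% to 34% in the 4 shIER5L samples.

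The integrin activators did not differ at the threshold. TLN1, the talin that links the beta tail to actin, was at 83.6, 88.3, 87.7 and 93.6 CPM in shScramble and 104.5, 95.5, 88.2 and 96.4 CPM in shIER5L. Only shIER5L replicate 3 lay among the controls, and the log2 fold change was 0.12 (SE 0.0573, adjusted p = 0.298). FERMT2 (kindlin-2), chosen after its values were seen, had a log2 fold change of 0.14 (SE 0.0482, adjusted p = 0.137) and overlapped. FERMT1 and TLN2 each had a log2 fold change of -0.09, with adjusted p-values of 0.433 and 0.69.

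The genes grouped as linkers to actin gave no call either, and the largest estimate among them was that of a tensin. VCL was at 923.6, 953.5, 982.7 and 983.7 CPM in shScramble and 1010, 980, 983.8 and 1020 CPM in shIER5L. The conditions overlapped narrowly, and its log2 fold change of 0.06 (SE 0.0369, adjusted p = 0.505) had the smallest standard error of the 44. TNS4 (cten), a tensin that lacks the actin-binding part of its relatives and was chosen here after its values were seen, was at 10.9, 14.6, 12.9 and 11.6 CPM in shScramble and 11.3, 10.3, 7.86 and 7.22 CPM in shIER5L. Its ranges overlapped through shIER5L replicate 1, with a log2 fold change of -0.45 (SE 0.14, adjusted p = 0.0956). Without that sample TNS4 was called and was the 1 member at the DEG thresholds. ACTN1, ACTN4, ZYX, KANK1 and KANK2 had log2 fold changes of -0.03 to 0.05, and TNS2 and TNS3 of -0.19 and -0.15 (adjusted p = 0.784 and 0.316).

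In the paxillin family, PXN (chr12:120210439-120265771, minus strand) was at 17.1, 17.6, 18.4 and 17.8 CPM in shScramble and 22.2, 18.4, 15.6 and 18.9 CPM in shIER5L. The control samples were tight and lay inside the spread of the knockdown samples. The log2 fold change was 0.08 (SE 0.0984, adjusted p = 0.767), with a 95% interval of -0.13 to 0.29 (-8.56% to 22.1%). Without shIER5L replicate 1 the estimate was -0.011. LPXN had a log2 fold change of -0.07 (SE 0.0617, adjusted p = 0.669). TGFB1I1 had the largest estimate of the 44, -0.49, from 1.23, 1.86, 1.36 and 0.896 CPM in shScramble and 0.794, 0.84, 1.08 and 1.1 CPM in shIER5L. Its ranges overlapped, and its standard error of 0.276 was too wide for a call (adjusted p = 0.414).

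The kinases and signalling adaptors gave no call either. PTK2, which docks to integrin clusters and phosphorylates paxillin, was at 236.8, 229.8, 224.9 and 250.5 CPM in shScramble and 241.7, 238.8, 228.4 and 228.5 CPM in shIER5L. All 4 knockdown samples sat within the control range, with a log2 fold change of -0.01 (SE 0.0444, adjusted p = 0.965) and a 95% interval of -0.10 to 0.09. SRC, its partner kinase, was at 22.3, 23.4, 22.2 and 23.8 CPM and then 23.9, 21.3, 21.4 and 20.7 CPM (log2 fold change -0.07, SE 0.0756, adjusted p = 0.726). PTK2B had a log2 fold change of 0.13 (SE 0.343), and its 95% interval of -0.599 to 0.855 leaves its change open. Of the adaptors, CRK, CRKL, GIT1 and GIT2 had log2 fold changes of -0.01 to 0.06 and BCAR1 (p130Cas) of -0.15 (adjusted p = 0.719). The 95% intervals of GIT1 (-0.348 to 0.359) and BCAR1 (-0.49 to 0.19) were also wide. In the ILK-PINCH-parvin complex LIMS1 (PINCH1) had 0.02, PARVA -0.16 and PARVB 0.25 (SE 0.134, adjusted p = 0.374).

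Among the genes of the set, 5 had too few counts to test. ILK, the pseudokinase at the centre of its complex and broadly expressed, was listed at 2, 2, 0 and 9 counts in shScramble and 6, 6, 2 and 8 in shIER5L. In the counted annotation 78.5% of the ILK exon bases also lay in exons of other genes, 68.1% in TAF10 on the opposite strand, and the counting command neither used strand nor assigned reads that overlapped 2 genes. The part of this in the low ILK count was not tested, and no level of ILK is drawn from these data. ITGA4, a subunit best known from leukocytes, was at 4, 4, 8 and 8 counts and then 12, 8, 15 and 16 counts, which overlapped. ITGA9, ITGB7 and TNS1 were at or below 0.471 CPM in every sample. ITGB7 (42.1% of exon bases), ITGB3 (51.6%) and GIT2 (25.5%) also shared much of their exons with neighbours. PXN shared 12.4%, ITGA6 5.37%, ITGB1 0.699% and ITGB8 0.647%.

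The surroundings of the set were read from 5 lists made from textbook knowledge, of integrin ligands, integrin regulators, other focal adhesion proteins, hemidesmosome proteins and actomyosin proteins, in which 8 genes passed the threshold. Of 33 ligands tested (of 38), 2 rose and 1 fell (9.09% called), where 3.93% of all genes tested were called, 2.46% higher and 1.46% lower. COL5A2, a chain of fibrillar type V collagen, rose from 1222, 1172, 1173 and 1197 CPM to 1639, 1612, 1517 and 1560 CPM, a log2 fold change of 0.41 (SE 0.0373, adjusted p = 1.2e-05). COL4A5, a basement membrane collagen chain, rose from 156 to 168.8 CPM in shScramble to 201 to 223 CPM in shIER5L (0.40, SE 0.0453, adjusted p = 9.52e-05). Neither collagen overlapped between conditions. Of the fibroblast markers LUM was at 0.401 to 0.761 CPM in shScramble and 0.822 to 0.882 CPM in shIER5L (adjusted p = 0.551) and DCN and COL1A1 were near 0, and their part in the collagen values was not tested. THBS1 (thrombospondin-1), a matrix protein that binds integrins and activates TGF-beta, fell from 30.4 to 37.7 CPM to 20.2 to 26 CPM (-0.53, SE 0.0948, adjusted p = 0.00409). It was 1 of the 2 DEGs in these lists. The laminin chains LAMA3 and LAMB3, parts of a ligand of the ITGA6 and ITGA3 receptors, had log2 fold changes of 0.12 and -0.14 (adjusted p = 0.16 and 0.463), and FN1 (fibronectin) of 0.02.

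Of the 43 other focal adhesion proteins tested (of 48), 3 rose and 0 fell (6.98% called, against 3.93% of all genes tested), and 9 had an unadjusted p under 0.05, where 16.5% of all genes tested did. DESeq2 and limma voom also called 3 higher and 0 lower. TES (testin), a LIM protein of adhesions, had a log2 fold change of 0.22 (SE 0.0476, adjusted p = 0.0141), the Src-family kinase YES1 0.20 (SE 0.0543, adjusted p = 0.0458) and the adaptor GRB2 0.16 (SE 0.0421, adjusted p = 0.0377). All 3 were higher in every knockdown sample than in any control, as were 6.33% of all genes tested. With 1 sample left out the estimates stayed at 0.19 to 0.25 for TES, 0.18 to 0.24 for YES1 and 0.14 to 0.18 for GRB2, but calls were lost. Without shScramble replicate 2 or 3, 341 and 305 genes of all those tested were called, beside 666 with all samples. Among the fits with 1 sample left out GRB2 kept its call only without shIER5L replicate 3, YES1 lost it without shScramble replicate 2 or 3 or without shIER5L replicate 1, 3 or 4, and TES without shScramble replicate 2 or 3 (adjusted p up to 0.125, 0.169 and 0.0618). GRB2 was also not called under upper quartile (adjusted p = 0.0612) or total count scaling (0.0545), nor YES1 under upper quartile (0.0686) or RLE scaling (0.0535). Of 16 actomyosin genes tested (of 17) 1 rose and 1 fell (12.5% called). PPP1R12A, the myosin phosphatase targeting subunit, rose (0.22, SE 0.0525, adjusted p = 0.023), a call lost without shScramble replicate 2, 3 or 4 or without shIER5L replicate 3 (adjusted p up to 0.0967). TPM3, a tropomyosin that coats actin filaments, fell from 745.1, 741.4, 766.4 and 748.6 CPM to 527.7, 497.6, 497.9 and 514.9 CPM, a log2 fold change of -0.56 (SE 0.0371, adjusted p = 3.95e-07). TPM3 has near-identical processed copies in the genome, and reads that fit several places were counted at their primary alignment only, so its absolute level is uncertain. None of 17 integrin regulators tested (of 26) and none of 3 hemidesmosome genes passed by edgeR's test, with 4 and 0 at an unadjusted p under 0.05 and 0 of either list at an adjusted p under 0.05 by DESeq2 or limma voom.

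Because knockdown rests on 1 hairpin, the members were searched for short matches to it. The sh2 sequence is shown first, from the study's list of hairpins, with the 8 bases in capitals that cover positions 11 to 18. The 2 heptamers in that stretch, ACATCTC and CATCTCA, were the ones ranked highest in an earlier analysis of these same data. The fold changes set beside their sites below are therefore description and no independent check of them. The sites below are the matches in the longest annotated 3′ UTR (GENCODE v44, GRCh38) of the called ITGB8, of the main alpha subunits ITGA6, ITGA2 and ITGAV, and of the fallen THBS1 and TPM3, with 7 flanking bases on each side and the matched bases in capitals.
sh2 IER5L hairpin: gacgcgtccaACATCTCAaac
ITGB8, chr7:20412102-20412122, plus strand: ctaacccCATCTCAtattcta
ITGB8, chr7:20414056-20414076, plus strand: caatttaACATCTCtgaaatt
ITGB8, chr7:20414468-20414488, plus strand: atattatCATCTCActtttaa
ITGA6, chr2:172506052-172506072, plus strand: aaaatgtCATCTCAagtcaag
ITGA2, chr5:53091845-53091866, plus strand: aagtaagACATCTCAggatttc
ITGAV, chr2:186680163-186680183, plus strand: cactaccCATCTCAatgtcac
THBS1, chr15:39596190-39596210, plus strand: aacctacCATCTCAgtgagca
TPM3, chr1:154166694-154166714, minus strand: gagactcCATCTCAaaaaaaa

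Either heptamer was present in the longest 3′ UTR of 14 of the 44 members tested (31.8%), against 24.0% of 12701 genes with a 3′ UTR of at least 30 bases. The members' 3′ UTRs were also longer, with a median of 1942.5 bases against 1540. Counting every annotated coding transcript, 31 members (70.5%) and 44.2% of genes held one. The median log2 fold change was -0.02 for the 14 members with a site, of which 8 were lower, and 0.011 for the 30 without, of which 14 were lower. Over all genes the medians were -0.007 with and 0.018 without a site. Of the called members ITGB8 held 3 sites and ITGB1 none. Of the 8 called genes of the other lists, the 2 that fell, THBS1 and TPM3, held a site each. The 6 that rose, COL4A5, COL5A2, GRB2, YES1, TES and PPP1R12A, held none. The 2 that fell also had the longest 3′ UTRs of the 8, 4097 and 6124 bases, against 1167 to 2836 bases for the 6. The part of length in this split was not tested. ITGA2 holds the full 8-base match and had a log2 fold change of 0.03. A site matching positions 2 to 8 of the guide strand, taken as the reverse complement of the hairpin, was present in 12 members (27.3%) and 28.4% of all genes. Of the 8 called genes of the other lists, that site was present in TPM3, which fell, and in COL5A2, GRB2, YES1 and TES, which rose. It was absent from THBS1, which fell, and from COL4A5 and PPP1R12A, which rose. A match of letters is not evidence of binding, and the part of the hairpin sequence in any value here was not tested.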

How the data were processed

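RNA-seq of 8 PC3 samples was analysed, 4 shScramble and 4 shIER5L, with conditions and replicate numbers taken from the sample titles. The authors deposited raw counts of reads per gene, with no normalization. Alignment to hg38 used STAR 2.7.5c, duplicates were taken out with SAMtools 1.15, and featureCounts 2.0.3 counted the primary alignments on exons, ignoring strand and treating the reads of a pair singly, as the submitters' notes, the methods and the table's first line state. Among counts from 1 to 20 a median of 65.6% were even, so counts overstate the number of independent fragments. The annotation release that was counted is not given in the sources used here. The methods name a ribosomal RNA depletion kit and the sample records an mRNA kit.

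Low genes were removed from these counts with filterByExpr, libraries were scaled by TMM, and shIER5L was compared with shScramble by the quasi-likelihood F-test of edgeR 4.0.16 (R 4.3.3), with no other covariate and with p-values adjusted over all 16959 genes (Benjamini-Hochberg). A standard error here is the size of the log2 fold change over the root of its F value, and intervals are at 95%. DEG thresholds follow the methods (adjusted p under 0.05, log2 fold change of 0.5 or more in size). The fit was tested on simulated counts. Alternatives were scaling by RLE, by upper quartile or by total count, 2 other filters, protein-coding genes, counts halved, the likelihood ratio test, limma 3.58.1 voom, DESeq2 1.42.0, a replicate block, and each of the 8 samples omitted in turn. Sites were searched with Python 3.11.15 in GENCODE 44 transcripts, and promoters came from RefSeq (GRCh38.p14). Full values are given for members with an adjusted p under 0.05, for PXN, the main integrins, PTK2, SRC, VCL, TLN1 and ILK, for the largest estimate, and for listed genes with an adjusted p under 0.05. The members and lists were chosen with earlier results of these data known. Motifs in the encoded proteins were not analysed here. Some genes of the lists are not reported here.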

Additional observations from a re-analysis of the deposited data

Results flagged for a closer look

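In the sets of 4 samples searched, 106 sets over 53 named genes, 2 held a sample set far apart from the other 3, and chance alone gives about 5% of such sets. ITGAE, which encodes the alpha subunit of a receptor for E-cadherin, was at 21.9 CPM in shIER5L replicate 1 and at 24.9 to 25.4 CPM in the other 3 shIER5L samples. ITGAE overlapped between conditions through that sample, since shScramble ran from 20.5 to 24.7 CPM, below the other 3 shIER5L samples, and its log2 fold change over all samples was 0.06 (SE 0.0832, adjusted p = 0.81 by edgeR's quasi-likelihood test). ITGB1 was at 1255 CPM in shScramble replicate 1 and at 1142 to 1159 CPM in the other 3 shScramble samples. Without that replicate the log2 fold change of ITGB1 was 0.22 (adjusted p = 0.0104 by edgeR's quasi-likelihood test), beside 0.19 with it.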

How the results depend on the processing

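Across 19 alternatives the number of members with an adjusted p under 0.05 moved from 2. It was 5 with no filter on low counts beyond 1 count (ITGA6, ITGB4 and TNS4 joined), beside 2.53% of all genes called. With DESeq2 it was 4 (ITGA6 and TNS4 joined), beside 5.58% of all genes. When 1 sample was left out it was 0 to 3, beside 1.76% to 4.37% of all genes. The 0 came without shScramble replicate 2 (1.97% of all genes called), shScramble replicate 3 (1.76%) or shIER5L replicate 4 (3.18%). DEGs among members were 0 in every fit except that without shIER5L replicate 1, which gave 1 (0 to 1). Called genes of the 5 other lists numbered 8, with 11 under no filter beyond 1 count, 10 by DESeq2 or the likelihood ratio test and 6 under upper quartile scaling, and 4 to 8 when 1 sample was left out, with 4 without shScramble replicate 2 or 3. ITGB1 and ITGB8 were called in all 11 alternatives on all samples. The sign turned only in fits that left out 1 sample, for ITGA5 (-0.05 to 0.11), PTK2 (-0.029 to 0.024) and PXN (-0.011 to 0.15), and the cause was not tested. Same-numbered samples had correlations of -0.048, 0.098, -0.041 and 0.144 in their deviations from the condition means, and the samples numbered 4 matched each other best. Low correlations over all genes together cannot exclude a pairing that affects some genes. With the replicate number as a block 3 members were called (TNS4 joined), beside 3.86% of all genes. That fit called 8 genes of the other lists and gave 0 DEGs among members. By its quasi-likelihood test ITGB1 had an adjusted p of 0.0154, ITGB8 of 0.00804 and GRB2 of 0.0662. Depth limits the genes near or below 1 CPM, where standard errors reached 0.457.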

Other observations

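Promoters of 37 of the 49 members were found in RefSeq (GRCh38.p14, 300 bases, 250 before and 50 after the start). A GC box (GGGCGG, either strand) was present in 21 of them (56.8%), beside 45.0% of 35116 promoters of all genes, with 3 copies at ITGB1 and 2 at ITGB8. An AP-1 site (TGANTCA) was present in 5 members (13.5% against 7.71%), an ETS site (CCGGAA) in 10 (27.0% against 17.2%), the TEAD letters GGAATG in 5 (13.5% against 14%) and a TATA box (TATAAA) in 1 (2.7% against 11.5%), ITGA6. These are matches of letters only.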
